A study of Mus musculus with 9 samples.

Results

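The nuclear-encoded subunits of the respiratory chain were examined in mouse heart after ischemia and reperfusion. Members were chosen by gene symbol, with no use of their counts. They are the symbols that start with Nduf (assembly factors left out), Uqcr, Cox4 to Cox8 or Atp5, and Sdha to Sdhd, without pseudogenes and hyphenated symbols. Among the 54532 gene identifiers counted, 86 were members: 38 of complex I, 4 of complex II, 8 of complex III, 18 of complex IV and 18 of complex V. A further 13 symbols with these beginnings were left out, 12 as processed pseudogenes and Ndufb1-ps as a noncoding transcript.

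The respiratory chain lies in the inner mitochondrial membrane. Complex I takes electrons from NADH and complex II from succinate, complex III passes them from ubiquinol to cytochrome c, and complex IV hands them to oxygen. The proton gradient that complexes I, III and IV build drives complex V, the ATP synthase. Cardiomyocytes are packed with mitochondria and make most of their ATP this way, and complexes I, III, IV and V also hold subunits encoded by mitochondrial DNA.

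Total RNA of heart tissue was sequenced from 9 male mice of the C57BL/6J strain, wild type and 8 to 10 weeks old, 3 in each of 3 groups. Sham mice had the chest opened and a thread passed under the left anterior descending coronary artery without tying it, and were given saline. MIRI mice (myocardial ischemia/reperfusion injury) had that artery tied for 30 min, then 24 h of reperfusion, with saline. GXNI mice had the same ischemia and reperfusion with Guanxinning injection, a herbal preparation, at 9 mL/kg. All injections went into the tail vein within 10 min of ischemia. The model is regional, since only the territory of that artery was ischemic, and which part of the heart went into each library was not stated in the sources used here. The 9 libraries held between 17119454 and 22811295 counts, so that 3 counts corresponded to between 0.132 and 0.175 CPM (counts scaled to a library of 1000000). CPM are given here after scaling by the trimmed mean of M values (TMM). The labels name cardiomyocytes as the cell type. Markers of cardiomyocytes were the most abundant of the marker lists in every library, but endothelial markers (summed level from 632 to 1128 CPM) and fibroblast markers (704 to 1896 CPM) were also counted, as in whole tissue.

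Some libraries went against their labels, and every comparison that uses them is therefore given in several ways. A principal component analysis of 15207 genes, whose leading axis took up 66.7% of the variance, placed the library labelled MIRI 2 at -40.6, beside GXNI 1 at -40.4 and near the sham libraries (-55.6 to -48.8). The library labelled GXNI 3 lay at 88.0, beyond MIRI 1 at 57.3 and MIRI 3 at 77.6, while GXNI 2 lay between at 16.6. The library most like MIRI 2 was GXNI 1 (Spearman's rho 0.982 across genes), and the one most like GXNI 3 was MIRI 3 (0.987). Summed neutrophil markers were 762, 29.4 and 705 CPM in MIRI 1 to 3 and 53.3, 244 and 744 CPM in GXNI 1 to 3, against 31.1 to 63.8 CPM in sham. The study's own fold changes were compared with ones rebuilt from the counts. For MIRI over sham, the median absolute log2 difference was 0.399 by the deposited labels and 4.16e-07 with MIRI 2 and GXNI 3 exchanged. For GXNI over MIRI, it was 0.752 and 1.6e-06. The study's fold changes thus belong to the exchanged grouping. Which labels are right was not tested. Results are given by the deposited labels first, then without MIRI 2, and then with MIRI 2 and GXNI 3 exchanged. Setting all 6 reperfused hearts against sham does not depend on which of the reperfused labels a heart carries.

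Promoter sequence was looked up in RefSeq (GRCm38.p6, the build named mm10 in the submitters' processing notes) to show what the members share upstream, since the rule used only their names. A promoter window of 300 bases, 250 before the start and 50 after it, was found for 68 of the 86 members. Nuclear respiratory factor 1 (NRF1) and the ETS factor GABP are known regulators of these genes. The NRF1 core GCGCATGC stood on either strand in 14.7% of the 68 members, against 3.05% of all 27025 genes with a window and 3.94% of coding genes. The ETS core CCGGAAG was held by 23.5% of the members, 9.93% of all genes and 12.9% of coding genes. For the estrogen-related receptor site AAGGTCA the shares were 11.8%, 5.38% and 4.73%. The CCAAT box was about as common in members (42.6%) as in all genes (41.1%) and coding genes (42.3%). TATAAA was held by 10.3%, 15.7% and 14.8%. None of these 5 letter strings contains another. The 250 bases upstream of 3 members are printed, 5′ to 3′ on the gene's strand. Ndufa8 and Sdhd were called lower in MIRI against sham without MIRI 2, while Cox6a1 had a higher mean in MIRI. Each of the 3 holds an NRF1 or ETS core, which was not typical of the called members. Ndufa5, Ndufb10, Ndufs7, Sdha, Cox7a2l and Cox6b2 were called in the same comparison and held neither core in their upstream 250 bases. No promoter was found for the other called members, Atp5s, Cox6a2 and Ndufs1. Capitals mark the NRF1 core and the ETS core, read on either strand. The printed stretches are chr2:36049339-36049588 for Ndufa8, chr9:50603850-50604099 for Sdhd and chr5:115348959-115349208 for Cox6a1, all on the reverse strand.
Ndufa8: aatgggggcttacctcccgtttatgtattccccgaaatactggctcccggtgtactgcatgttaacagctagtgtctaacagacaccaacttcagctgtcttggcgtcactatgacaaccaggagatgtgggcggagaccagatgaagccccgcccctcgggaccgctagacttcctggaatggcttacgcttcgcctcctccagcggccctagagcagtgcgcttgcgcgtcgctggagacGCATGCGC
Sdhd: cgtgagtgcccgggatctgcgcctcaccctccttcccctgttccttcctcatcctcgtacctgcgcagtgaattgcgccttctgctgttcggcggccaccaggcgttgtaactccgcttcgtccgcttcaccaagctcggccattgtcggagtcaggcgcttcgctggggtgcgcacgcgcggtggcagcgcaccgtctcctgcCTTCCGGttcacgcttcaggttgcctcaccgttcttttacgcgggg
Cox6a1: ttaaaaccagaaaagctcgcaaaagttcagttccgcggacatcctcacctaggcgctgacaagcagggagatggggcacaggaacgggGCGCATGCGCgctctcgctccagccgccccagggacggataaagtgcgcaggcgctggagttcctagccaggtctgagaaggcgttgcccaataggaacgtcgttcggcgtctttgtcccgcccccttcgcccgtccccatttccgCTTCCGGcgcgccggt
The Ndufa8 stretch ends in an NRF1 core, the Sdhd stretch holds an ETS core, and Cox6a1 holds NRF1 cores on both strands that overlap, and an ETS core. A match is a description of the letters and not a bound site.

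As a group the members took between 3.53% and 4.82% of all counts in a library. Their summed level was 45880, 49310 and 46840 CPM in the sham libraries. It was 35260, 51180 and 34630 CPM in MIRI 1 to 3, and 44370, 41700 and 35080 CPM in GXNI 1 to 3. Relative to the sham mean, MIRI 1, MIRI 3 and GXNI 3 were at 74.5%, 73.1% and 74.1%, GXNI 1 and GXNI 2 at 93.7% and 88.1%, and MIRI 2 at 108%. So 5 of the 6 reperfused libraries lay below every sham library, and MIRI 2 lay above every sham library. In this bulk tissue, fewer cardiomyocytes and less RNA per cardiomyocyte cannot be told apart.

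**Figure D1:**
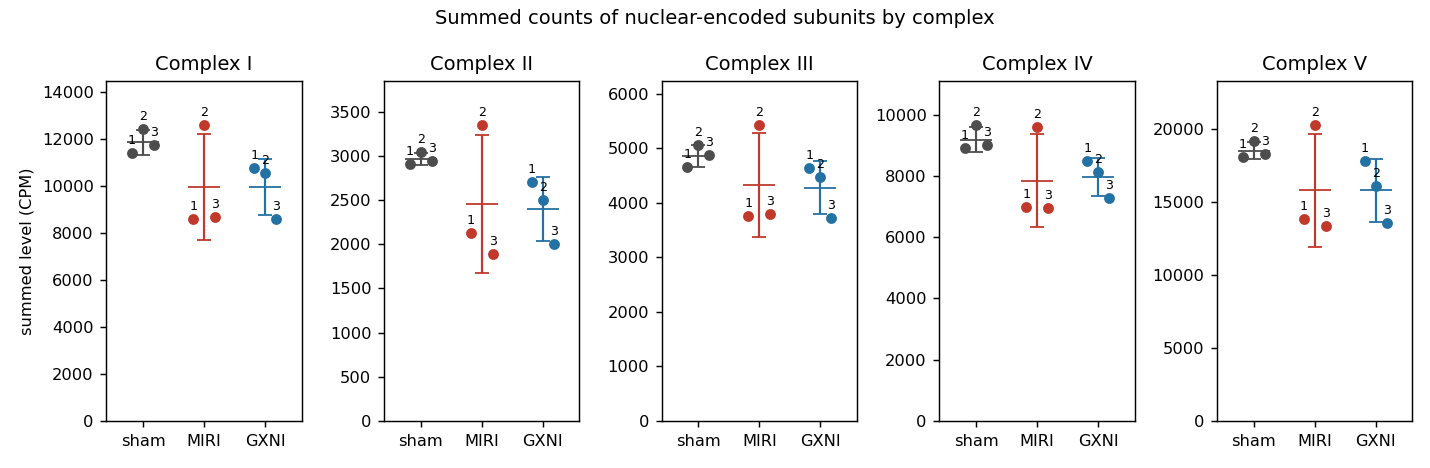
Summed TMM-scaled CPM of the members of each complex (vertical axes, CPM, from 0) in sham, MIRI and GXNI; points are libraries with their replicate number, and the bar and whiskers are the mean ± SD of 3. In every complex MIRI 1, MIRI 3 and GXNI 3 lie lowest and MIRI 2 lies with or above the sham libraries.

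The order of the libraries was alike in each complex. Complex I sums were 11390 to 12420 CPM in sham, 8580, 12570 and 8691 CPM in MIRI 1 to 3, and 10750, 10530 and 8568 CPM in GXNI 1 to 3. Complex V, the largest share, summed to 18040 to 19150 CPM in sham, and to 13820, 20230 and 13320 CPM in MIRI 1 to 3. It was at 17790, 16080 and 13520 CPM in GXNI 1 to 3. Complex II had the lowest values relative to sham, at 63.8% of the sham mean in MIRI 3 and 67.5% in GXNI 3.

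Gene by gene, 83 of the 86 members had enough counts to be tested. Cox7b2, a testis form, had at most 3 counts in any library, and Cox8c, another testis form, had 0 in all 9. A second identifier for Atp5o, which overlaps the first, also had 0 counts. In MIRI 1, 80 of the 83 lay below the lowest sham library, as did 39.5% of all genes. The counts below were 80 in MIRI 3 (42.0% of all genes) and 79 in GXNI 3 (42.8%). They were 59 in GXNI 1 (30.5%) and 68 in GXNI 2 (36.6%). In MIRI 2 only 5 members lay below (32.0% of all genes), and 44 lay above the highest sham library (33.9% of all genes). The members not below sham in MIRI 1 and MIRI 3 were Cox4i2, Cox6a1 and Ndufa4l2 in each.

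**Figure D2:**
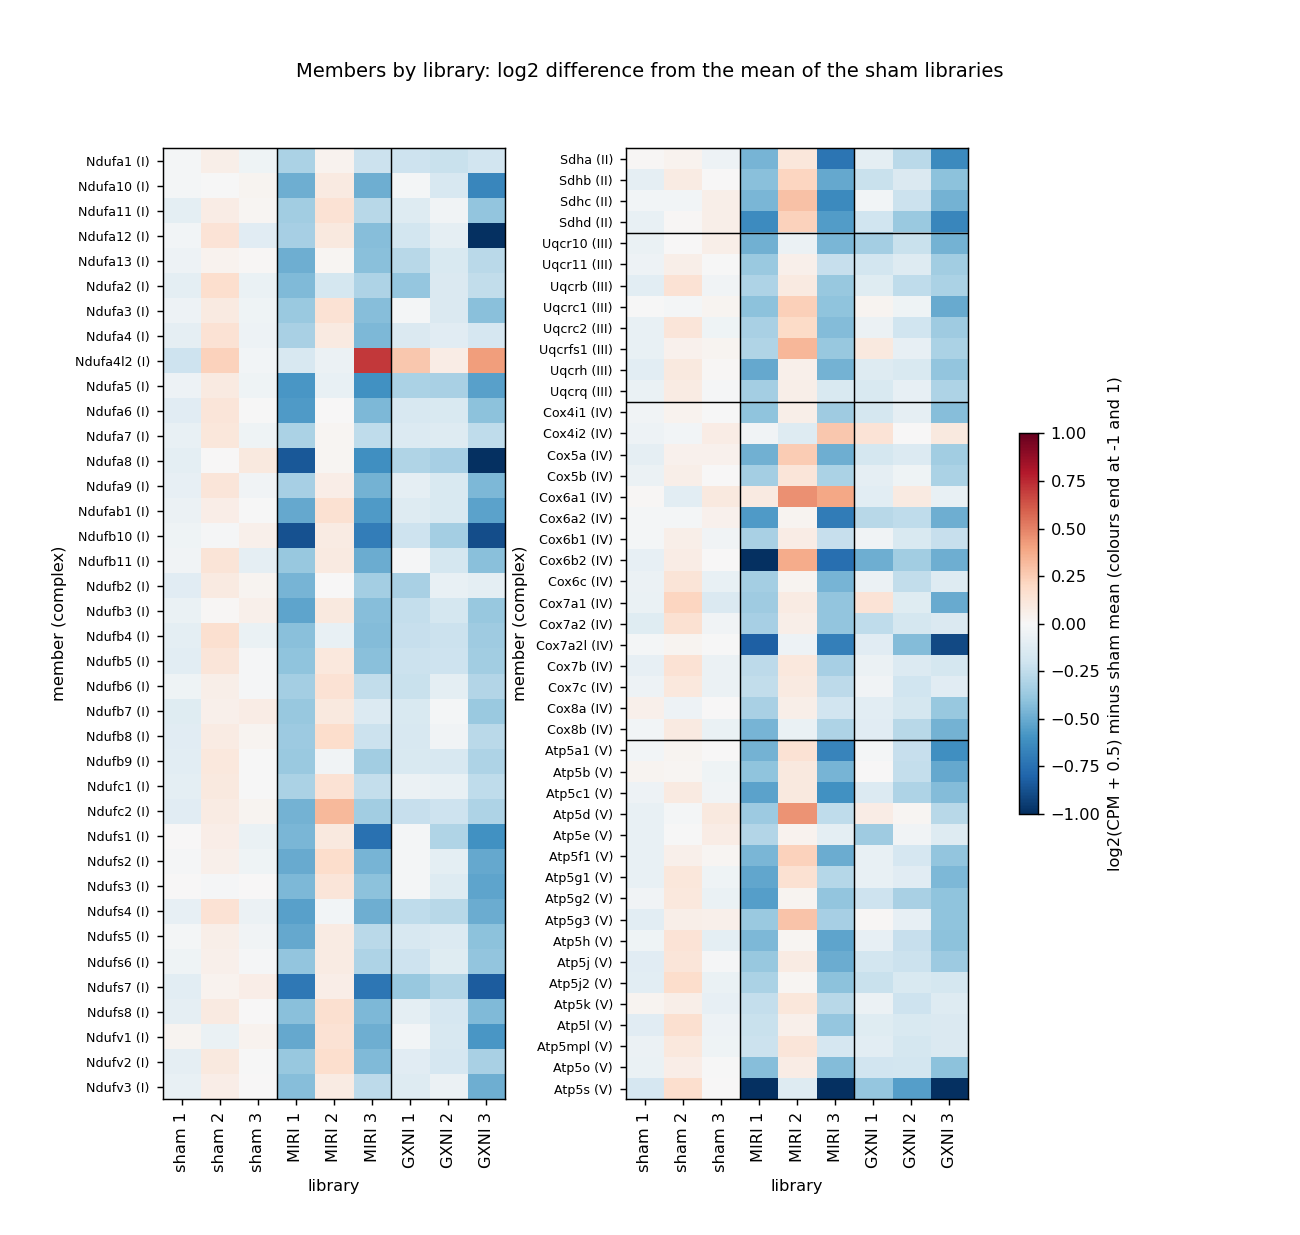
Each row is 1 of the 83 tested members with its complex in brackets, each column a library, and colour the log2 difference of its level (CPM with 0.5 added) from the sham mean, blue lower and red higher. MIRI 1, MIRI 3 and GXNI 3 are blue in nearly every row, GXNI 1 and GXNI 2 are paler, and Ndufa4l2, Cox4i2 and Cox6a1 stand out as rows that are not blue.

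Ischemia and reperfusion were examined first by MIRI against sham. By the deposited labels, 80 of the 83 members had a lower mean in MIRI, with a median log2 fold change of -0.21 against -0.00 over all genes, and 0 members passed the call. A call needed a change of 1.5-fold or more together with p at or under 0.01, unadjusted, in edgeR's quasi-likelihood test, the thresholds the study used. Over all 14644 genes tested 2.82% were called lower and 6.15% higher, against 0 of 83 members in each direction. At an unadjusted p under 0.05, 1 member (Atp5s) was lower, against 11.5% of all genes, and 0 were higher, against 16.9%, and DESeq2 also called 0. The smallest Benjamini-Hochberg adjusted p of edgeR's test among members was 0.167. Without overlap between the groups, 4 of 83 members were lower in every MIRI library than in every sham library (Ndufa2, Ndufa5, Cox7a2l and Cox8b), while 16.2% of all genes were.

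That result rests on the library labelled MIRI 2. Without it, 11 of the 83 members were called lower, against 13.3% of all 15207 genes, and 0 were called higher, against 16.9%. The median log2 fold change of the members was -0.40, against -0.01 for all genes. With no fold minimum, at an unadjusted p of at most 0.01, 46 members were lower, against 16.3% of all genes. At an adjusted p of at most 0.05, 61 of the 83 were lower, against 20.3% of all genes. Most of the members that passed on p alone were thus under the 1.5-fold minimum, and the share past it was close to that of all genes. With MIRI 2 and GXNI 3 exchanged, 9 members were called lower (16.6% of all genes), 59 were lower at an unadjusted p of at most 0.01 (21.2%) and 70 at an adjusted p of at most 0.05 (26.0%). All 9 were among the 11, of which they made up 81.8%.

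**Figure D3:**
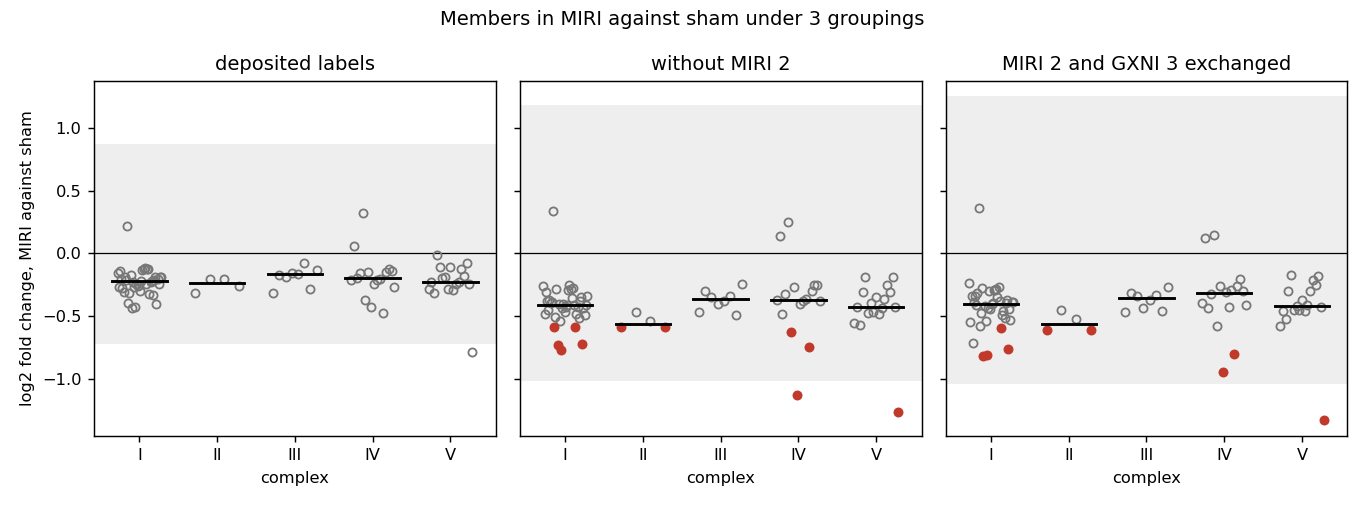
Log2 fold change of each tested member in MIRI against sham (vertical axis) by complex (horizontal axis) with the deposited labels, without MIRI 2, and with MIRI 2 and GXNI 3 exchanged; red points are called, black bars are medians and the grey band holds the middle of all genes, from the 10th to the 90th percentile. No point is red with the deposited labels, 11 are red without MIRI 2 and 9 with the exchange.

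Complex I passes electrons from NADH to ubiquinone and has a core that carries out the reaction and many accessory subunits. Without MIRI 2, 5 of its 38 members were called lower and 30 were lower at an adjusted p of at most 0.05, with a median log2 fold change of -0.41. Ndufa8, an accessory subunit (chr2:36036326-36049406, reverse strand, GRCm38), was at 291, 313 and 333 CPM in sham. It was at 173, 316 and 203 CPM in MIRI 1 to 3 and at 253, 248 and 156 CPM in GXNI 1 to 3. Of the 6 reperfused libraries, MIRI 2 alone lay within the sham range, and the other 5 lay below it. Its log2 fold change in MIRI against sham was -0.43 (SE 0.23, edgeR adjusted p = 0.253). It was -0.73 without MIRI 2 (SE 0.12, edgeR adjusted p = 0.00334).

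Ndufa5, an accessory subunit with the second highest level per length of complex I (483 CPM per kb), was at 573, 631 and 576 CPM in sham. It was at 396, 564 and 390 CPM in MIRI 1 to 3 and at 476, 472 and 406 CPM in GXNI 1 to 3. All 6 reperfused libraries lay below all 3 sham libraries. Ndufa2, another accessory subunit, was at 253, 303 and 258 CPM in sham, at 198, 239 and 218 CPM in MIRI and at 206, 244 and 227 CPM in GXNI, again without overlap. Ndufa4, the highest per length of the members listed under complex I (516 CPM per kb) and now assigned to complex IV, was at 723, 850 and 744 CPM in sham. Its MIRI values were 615, 818 and 564 CPM, and its GXNI values 695, 712 and 685 CPM, so the ranges of MIRI and sham overlapped.

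Ndufb10, Ndufs7 and Ndufs1 were chosen after their values were seen, because they were called without MIRI 2. Ndufs1, the large iron-sulfur subunit of the core, was at 558, 583 and 533 CPM in sham, at 406, 596 and 333 CPM in MIRI and at 550, 453 and 366 CPM in GXNI. Ndufs7, a core subunit near the ubiquinone site, was at 330, 363 and 372 CPM in sham, at 215, 372 and 214 CPM in MIRI and at 273, 287 and 198 CPM in GXNI. Ndufb10, an accessory subunit of the membrane arm, was at 452, 461 and 481 CPM in sham, at 254, 491 and 288 CPM in MIRI and at 402, 367 and 251 CPM in GXNI. Without MIRI 2 its log2 fold change of -0.77 (SE 0.11, edgeR adjusted p = 0.00162) was the lowest of complex I.

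Ndufa12, an accessory subunit, had 1 library apart from the rest. It was at 195, 218 and 183 CPM in sham, at 157, 212 and 147 CPM in MIRI and at 174, 186 and 59.8 CPM in GXNI 1 to 3. The value of GXNI 3 came from 1030 counts. Ndufb2, the lowest of the complex I members per length (6.28 CPM per kb), was at 35.8, 41.3 and 39.5 CPM in sham, at 28.04, 38.9 and 30.5 CPM in MIRI and at 30.9, 36.8 and 36.2 CPM in GXNI. It overlaps Braf on the other strand, and its length includes a long isoform, so its counts and its level per length are uncertain.

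Complex II, succinate dehydrogenase, has only nuclear-encoded subunits and also serves the citric acid cycle. All 4 of its members were highest in MIRI 2. Sdha, the flavoprotein that oxidises succinate (chr13:74322254-74350280, reverse strand), was at 1563, 1591 and 1500 CPM in sham. It was at 1123, 1680 and 933 CPM in MIRI 1 to 3 and at 1448, 1286 and 996 CPM in GXNI 1 to 3. Every reperfused library but MIRI 2 lay below sham. Sdhb, the iron-sulfur subunit, was at 622, 704 and 667 CPM in sham, at 495, 769 and 465 CPM in MIRI and at 570, 601 and 500 CPM in GXNI. Sdhc, a membrane anchor, was at 359, 360 and 381 CPM in sham, at 266, 450 and 236 CPM in MIRI and at 360, 316 and 264 CPM in GXNI. Sdhd, the other anchor, was at 361, 382 and 395 CPM in sham, at 245, 446 and 258 CPM in MIRI and at 330, 292 and 241 CPM in GXNI. In MIRI against sham by the deposited labels their log2 fold changes ran from -0.31 to -0.20, with adjusted p from 0.395 to 0.596 by edgeR. Without MIRI 2 all 4 had an adjusted p of at most 0.05, with a median of -0.57, and Sdha (-0.59, SE 0.12) and Sdhd (-0.59, SE 0.10) were called lower. With the exchange the median was also -0.57, and the same genes, Sdha and Sdhd, were called.

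Complex III, the cytochrome bc1 complex, had 0 of 8 members called in any of the 3 groupings. Uqcrfs1, the Rieske iron-sulfur protein, was at 718, 778 and 771 CPM in sham, at 613, 951 and 580 CPM in MIRI and at 807, 715 and 607 CPM in GXNI. GXNI 1 and MIRI 2 lay above every sham library. Uqcr10, a small subunit, was at 328, 344 and 358 CPM in sham, at 246, 329 and 251 CPM in MIRI and at 272, 294 and 247 CPM in GXNI, with only MIRI 2 inside the sham range. Uqcrh, the hinge protein beside cytochrome c1, was at 459, 527 and 498 CPM in sham, at 347, 512 and 356 CPM in MIRI and at 452, 443 and 376 CPM in GXNI. Uqcr11, a small subunit with the highest level per length of this complex (540 CPM per kb), was at 364, 393 and 378 CPM in sham. It was at 292, 391 and 322 CPM in MIRI and at 332, 346 and 297 CPM in GXNI. Without MIRI 2, 6 of the 8 were lower at an adjusted p of at most 0.05, and with the exchange all 8 were.

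Complex IV, cytochrome c oxidase, has isoforms that differ between heart and other tissues. Its members' log2 fold changes in MIRI against sham ran from -0.48 to 0.32. Cox6a2, the heart and muscle form of subunit 6a (chr7:128205435-128206387, reverse strand), had the highest level per length of all members, at 2149 CPM per kb. It was at 1685, 1687 and 1760 CPM in sham, at 1157, 1744 and 1056 CPM in MIRI and at 1413, 1433 and 1218 CPM in GXNI. Cox6a1, the form of other tissues (chr5:115345642-115348981, reverse strand), had a higher mean in MIRI than in sham. It was at 109, 101 and 116 CPM in sham, at 116, 149 and 142 CPM in MIRI and at 101, 116 and 103 CPM in GXNI, so that 2 of the 6 reperfused libraries, MIRI 2 and MIRI 3, lay above every sham library and none below. Its log2 fold change in MIRI against sham was 0.32 (SE 0.14, edgeR adjusted p = 0.189), and 0.14 (SE 0.13) with the exchange.

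Cox7a2l, which helps join complexes III and IV into supercomplexes (chr17:83501918-83517330, reverse strand), was at 163, 168 and 164 CPM in sham. It was at 93.3, 159 and 102 CPM in MIRI and at 152, 122 and 88.1 CPM in GXNI, below sham in all 6 reperfused libraries. Its log2 fold change in MIRI against sham was -0.48 (SE 0.21, edgeR adjusted p = 0.187), and -0.75 (SE 0.11, edgeR adjusted p = 0.00158) without MIRI 2. Cox8b, the heart and muscle form of subunit 8, was at 640, 697 and 624.8 CPM in sham, at 473, 624 and 529 CPM in MIRI and at 604, 540 and 469 CPM in GXNI. The highest reperfused value, in MIRI 2, lay just under the lowest sham value. Cox8a, its counterpart in other tissues, was at 159, 148 and 154 CPM in sham, at 122, 160 and 134 CPM in MIRI and at 142, 136 and 118 CPM in GXNI.

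Cox4i1, the common form of subunit 4, was at 1422, 1491 and 1447 CPM in sham, at 1100, 1510 and 1135 CPM in MIRI and at 1286, 1363 and 1080 CPM in GXNI. Cox4i2, the form linked to low oxygen and the lung, was at 7.03, 7.18 and 7.73 CPM in sham, at 7.12, 6.65 and 8.92 CPM in MIRI and at 8.09, 7.34 and 7.84 CPM in GXNI. Cox7a1, the heart and muscle form of subunit 7a, was at 732, 888 and 693 CPM in sham, at 599, 811 and 583 CPM in MIRI and at 844, 704 and 540 CPM in GXNI. Its counterpart Cox7a2 was at 285, 346 and 303 CPM in sham, at 247, 324 and 235 CPM in MIRI and at 260, 275 and 281 CPM in GXNI. Cox6b2, the testis form of subunit 6b, was low, at 2.47, 2.82 and 2.66 CPM in sham, at 1.03, 3.56 and 1.37 CPM in MIRI and at 1.75, 1.97 and 1.74 CPM in GXNI. It was called lower without MIRI 2 at a log2 fold change of -1.13 (SE 0.28, edgeR adjusted p = 0.0156), on 22 to 57 counts a library.

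Complex V makes ATP with a catalytic F1 head, a membrane ring of c subunits and a stalk. Atp5a1 and Atp5b, the alpha and beta subunits of the head, had its highest levels per length, at 1215 and 1189 CPM per kb. Atp5b was at 5684, 5660 and 5433 CPM in sham, at 4235, 5992 and 4060 CPM in MIRI and at 5608, 4734 and 3928 CPM in GXNI. Atp5a1 was at 4228, 4385 and 4318 CPM in sham, at 3114, 4756 and 2733 CPM in MIRI and at 4244, 3674 and 2822 CPM in GXNI. In each, GXNI 1 lay within the sham range, MIRI 2 above it and the other 4 reperfused libraries below it. Atp5g2, a gene for the c subunit, was at 200, 220 and 195 CPM in sham, at 140, 209 and 155 CPM in MIRI and at 178, 164 and 155 CPM in GXNI. Atp5d, the delta subunit of the head, was at 524, 544 and 590 CPM in sham, at 429, 752 and 463 CPM in MIRI and at 581, 558 and 455 CPM in GXNI.

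Atp5s, coupling factor B, is caught by its symbol but is not a structural subunit of the enzyme. It had the lowest log2 fold change of all members (chr12:69724950-69744660, forward strand). It was at 20.9, 26.5 and 23.7 CPM in sham, at 10.1, 21.6 and 9.60 CPM in MIRI and at 17.9, 15.96 and 8.65 CPM in GXNI. Only MIRI 2 lay inside the sham range. Its log2 fold change in MIRI against sham was -0.79 (SE 0.32, edgeR unadjusted p = 0.0441, adjusted p = 0.167). It was -1.27 (SE 0.15, edgeR adjusted p = 0.000749) without MIRI 2 and -1.33 (SE 0.13, edgeR adjusted p = 0.000112) with the exchange.

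Whether GXNI changed the members was examined by GXNI against MIRI. By the deposited labels 39 of 83 members were lower and 44 higher, with a median log2 fold change of 0.00 for members and for all genes. Among all 14762 genes 0.0203% were called lower and 0.0% higher, and 0 of the 83 members were called in either direction. By edgeR 0 members had an unadjusted p under 0.05, against 0.122% of all genes lower and 0.196% higher, and DESeq2 also called 0. The 3 members with the smallest p were Cox6a1 (log2 fold change -0.34, SE 0.17, adjusted p = 1.0 by edgeR), Ndufa12 (-0.29, SE 0.43) and Ndufb2 (0.10, SE 0.18). For Sdha the difference was 0.01 with an SE of 0.29, so differences of a size like those seen between libraries could not be resolved. The exchange, the grouping that gave back the study's fold changes, turned this comparison. Then 81 of 83 members were higher in GXNI, with a median of 0.35. Atp5s (0.98, SE 0.16), Ndufb10 (0.68, SE 0.15), Ndufa8 (0.63, SE 0.15) and Cox7a2l (0.62, SE 0.14) were called higher, 4 of 83 against 8.56% of all genes. At an adjusted p of at most 0.05, 21 of 83 were higher, against 11.5% of all genes. Without MIRI 2 and GXNI 3, which leaves 2 libraries a group, 1 member (Atp5s) was called higher, against 228 of all 14984 genes. In that fit 0 members were called lower, against 520 of all genes.

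GXNI against sham gave a lower mean in GXNI for 81 of 83 members by the deposited labels, with a median log2 fold change of -0.21. Of all 14695 genes 1.54% were called lower and 2.67% higher, and 0 of the 83 members in either direction. At an unadjusted p under 0.05, 9 of the 83 members were lower by edgeR, against 7.56% of all genes, the smallest adjusted p was 0.223 (Ndufa5), and DESeq2 called 0. That count of 9 was 1 when all 9 libraries were fitted together, against 5.58% of all genes. With the replicate number as a block it was 2 (7.69% of all genes), and with the exchange 1 (7.23%). It was 0 without sham 2 (3.5%) or sham 3 (3.63%) and 3 without sham 1 (4.32%). It was 4 without GXNI 2 (4.56%), 8 without GXNI 3 (7.16%) and 18 without GXNI 1 (17.5%). Without overlap between the groups, 51 of the 83 members were lower in all 3 GXNI libraries than in all 3 sham libraries, against 15.6% of all genes. With the exchange, the median was -0.06 and 0 members were called. Of all 14599 genes, 228 were then called lower and 315 higher.

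The 6 reperfused hearts against the 3 sham hearts gave a comparison that does not depend on which reperfused label a heart carries. It still takes MIRI 2 as a reperfused heart. Again 80 of 83 members had a lower mean, with a median log2 fold change of -0.21 against 0.01 for all genes, and 0 were called, while 2.85% of all 15207 genes were called lower and 5.52% higher. At an unadjusted p under 0.05, 10 of the 83 members were lower by edgeR, against 11.8% of all genes, and DESeq2 called 0. Without MIRI 2 that count was 46, against 16.5% of all genes. It was 0 to 6 with 1 of sham 1 to 3, MIRI 1, MIRI 3 or GXNI 3 left out. The share of all genes was then 6.73% to 9.73%. The smallest adjusted p was that of Ndufa5 (-0.40, SE 0.14, adjusted p = 0.111 by edgeR). Uqcr10 (-0.33, SE 0.12) and Atp5s (-0.77, SE 0.29) followed. The 4 members below sham in all 6 reperfused libraries were Ndufa2, Ndufa5, Cox7a2l and Cox8b, 4 of 83 against 8.46% of all genes. These comparisons share their sham libraries, and GXNI and MIRI their libraries with the pooled one.

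Paired isoforms were compared as ratios within a library, which do not depend on scaling. The log2 ratio of Cox6a2 to Cox6a1 was 3.94, 4.06 and 3.92 in sham. It was 3.32, 3.55 and 2.89 in MIRI 1 to 3 and 3.80, 3.63 and 3.56 in GXNI 1 to 3, below the lowest sham value in 6 of 6 reperfused libraries. The difference was -0.52, at an exact permutation p of 0.0238 (two-sided, the smallest that 6 against 3 libraries can give), and 0.119 after Benjamini-Hochberg adjustment over the 5 ratios. On a linear scale the heart form was counted 15.7 ± 0.839 times as often as the other form in sham (SD, n = 3) and 11.2 ± 2.26 times as often in reperfused hearts (SD, n = 6). MIRI 2 (3.55) lay below every sham library in this ratio, unlike in the summed level.

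The other 4 ratios did not pass. Cox7a1 over Cox7a2 differed by 0.01 (exact permutation p = 0.905), and GXNI 1 (1.70) and GXNI 3 (0.94) lay on either side of the sham values (1.19 to 1.36). Cox8b over Cox8a differed by -0.10 (exact permutation p = 0.191), with 5 of 6 reperfused libraries below the lowest sham value. Cox4i2 over Cox4i1 differed by 0.29 (exact permutation p = 0.167), with 5 of 6 above the highest sham value and MIRI 2 below the lowest. Ndufa4l2 over Ndufa4 differed by 0.40 (exact permutation p = 0.143), with the same 5 above and MIRI 2 below. Their adjusted values over the 5 ratios were 0.905 for Cox7a1 over Cox7a2 and 0.238 for the other 3. Ndufa4l2, a hypoxia-induced relative of Ndufa4, was itself at 14.01, 19.2 and 15.98 CPM in sham, at 14.5, 15.6 and 26.9 CPM in MIRI and at 19.7, 17.1 and 21.9 CPM in GXNI. It overlaps Shmt2 on the other strand.

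**Figure D4:**
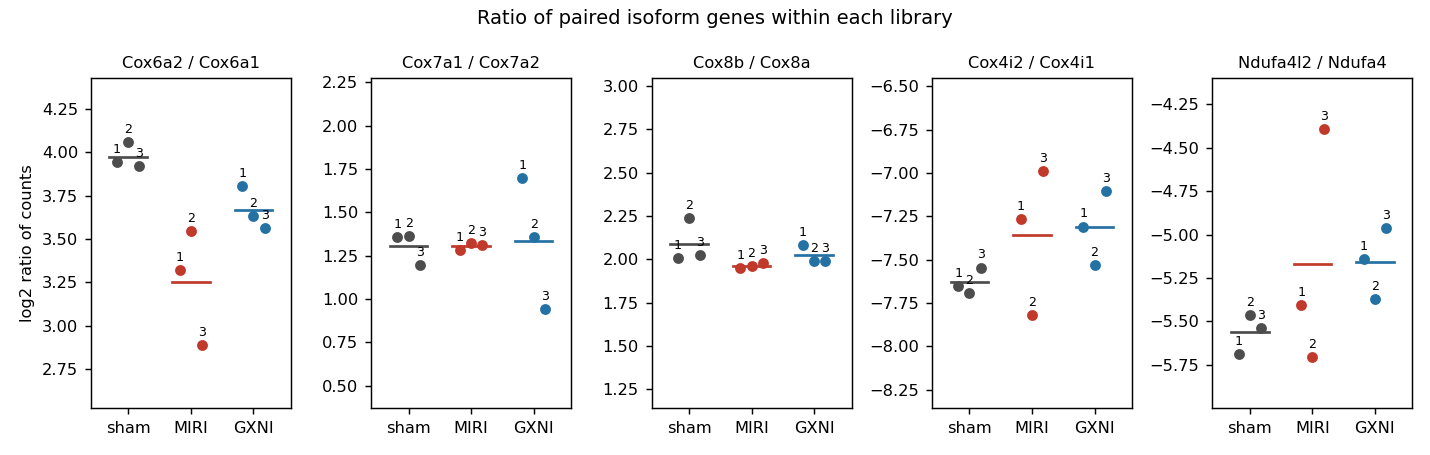
Log2 ratio of the counts of 5 isoform pairs within each library, by group; points are libraries with their replicate number, lines are group means, and every panel spans the same range of the log2 scale. For Cox6a2 over Cox6a1 all 6 reperfused libraries lie below all 3 sham libraries, and for the other pairs the groups overlap.

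Marker lists of cell types differed between libraries too, and not all in the direction of the members. The 12 cardiomyocyte markers summed to 55650, 56430 and 58150 CPM in sham, to 39190, 59590 and 42220 CPM in MIRI and to 50090, 43340 and 40740 CPM in GXNI. Relative to them, the members were at 0.824, 0.874 and 0.806 in sham, at 0.900, 0.859 and 0.820 in MIRI and at 0.886, 0.962 and 0.861 in GXNI. These ratios lay below every sham library in 0 of the 6 reperfused libraries, but they depend on which markers are summed, since the 12 did not move together. Myh6, the alpha myosin heavy chain and the largest term in sham, was at 14448 to 16456 CPM in sham and at 7450, 6532 and 7053 CPM in MIRI 1, MIRI 3 and GXNI 3. Actc1, cardiac actin, was at 4118 to 5503 CPM in sham and above it in MIRI 2, MIRI 3 and GXNI 3 (8824, 10361 and 7500 CPM), and Tnnc1 lay above sham in MIRI 1, MIRI 3 and GXNI 3. The sum was also taken without each marker in turn, an alternative chosen after the values were seen. Without Myh6, the members' ratio was 1.10 to 1.17 in sham and lower in MIRI 3 (0.970) and GXNI 3 (1.04). Without Pln, which holds the calcium pump in check, MIRI 3 (0.8285) lay just below the lowest sham library (0.8294). With any other of the 12 left out, 0 libraries lay below. For complex II the ratio was 0.0506 to 0.0538 in sham and lower in MIRI 3 (0.0448) and GXNI 3 (0.0491), but without Actc1 no reperfused library lay below sham. All 10 neutrophil markers were counted, and 3 of the 6 reperfused libraries (MIRI 1, MIRI 3 and GXNI 3) were at 705 CPM or more in their sum, though Ly6g stayed under 1 CPM in all 9. The atrial list, which rests on Nppa, summed to 40.3 to 83.97 CPM in sham and was highest in MIRI 3 (667 CPM) and GXNI 3 (729 CPM), where Myl7 had 0 counts. The other atrial genes were low throughout but highest in MIRI 2, with Myl4 at 3.503 CPM, Myl7 at 1.78 CPM and Sln at 1.37 CPM. The mesothelial list was highest in GXNI 1 (76.1 CPM, against 10.6 to 25.1 CPM in sham). Macrophage and monocyte markers ran from 347 to 697 CPM over the 9 libraries and red cell markers from 136 to 397 CPM. The adipocyte list (417 to 659 CPM) was almost wholly Fabp4, which capillary endothelium also expresses. The adipocyte genes Cfd (3.68 CPM), Plin1 (1.66 CPM) and Cidec (1.72 CPM) were likewise highest in MIRI 2, the library whose label is in doubt, against at most 0.985 CPM in any other library. The part of cell makeup in the members' values was not tested. The summed 13 subunits encoded by mitochondrial DNA were at 267200 to 302200 CPM in sham, at 232500, 276700 and 212300 CPM in MIRI and at 254900, 239500 and 223300 CPM in GXNI. The ratio of nuclear-encoded members to them was 0.163 to 0.172 in sham, 0.152, 0.185 and 0.163 in MIRI and 0.174, 0.174 and 0.157 in GXNI.

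**Figure D5:**
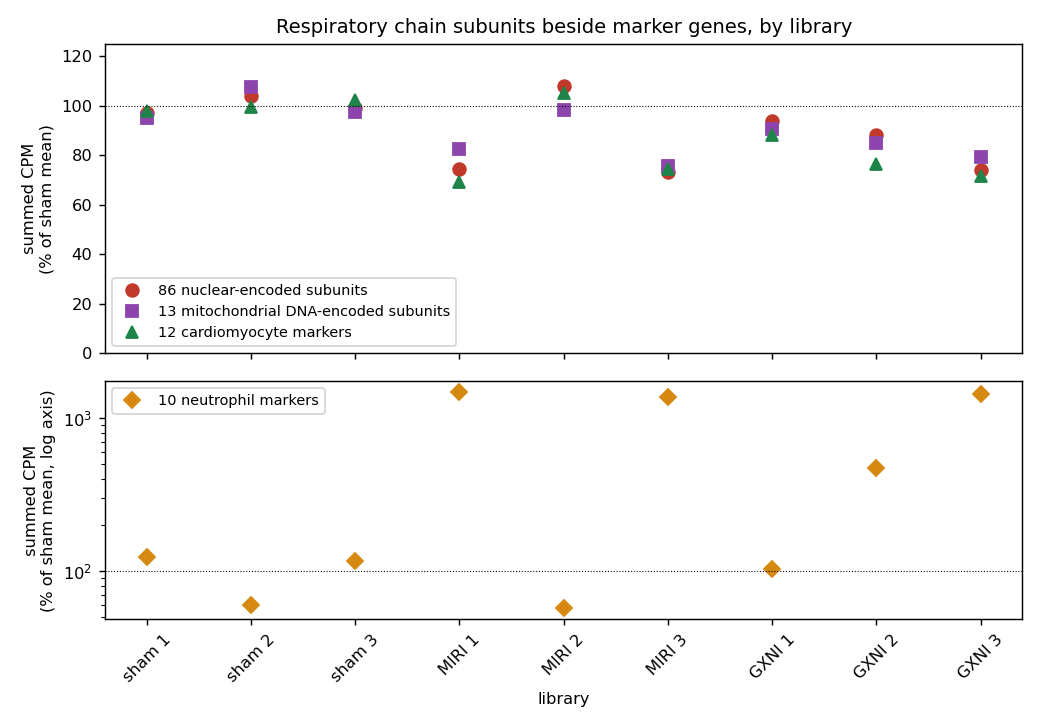
Summed CPM as a percentage of the sham mean in each library, for the 86 members, the 13 mitochondrial DNA-encoded subunits and 12 cardiomyocyte markers (upper panel) and for 10 neutrophil markers (lower panel, log axis). MIRI 1, MIRI 3 and GXNI 3 have the lowest members and cardiomyocyte markers and the highest neutrophil markers, and MIRI 2 is near the sham level in all 4.

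Other genes of the pathway were read from lists. Beside 2.85% of all genes called lower and 5.52% called higher in the 6 reperfused hearts, 4 and 0 of 47 tested assembly factors were called lower and higher, of 18 regulators of transcription 0 and 1, of 28 electron carriers and neighbours 1 and 0, and of the 13 mitochondrial DNA-encoded subunits 0 and 0. In MIRI against sham, with 2.82% and 6.15% of all genes called, the calls were 1 lower and 1 higher, 0 and 1, 0 and 0, and 0 and 0 in the same order. Without MIRI 2, when 13.3% of all genes were called lower and 16.9% higher, they were 12 and 2, 6 and 2, 9 and 0, and 0 and 0. With the exchange, against 16.6% and 19.2% of all genes, they were 15 and 2, 6 and 2, 9 and 1, and 1 and 0.

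Ppargc1a, the coactivator PGC-1alpha that drives mitochondrial gene expression, was at 158, 103 and 159 CPM in sham. It was at 54.8, 128 and 32.6 CPM in MIRI and at 155, 83.99 and 22.8 CPM in GXNI. Its log2 fold change in MIRI against sham was -0.96 (SE 0.48, edgeR adjusted p = 0.226), and -1.68 (SE 0.28, edgeR adjusted p = 0.00296) without MIRI 2. Esrra, the nuclear receptor ERRalpha, was at 187, 187 and 192 CPM in sham, at 124.5, 216 and 123 CPM in MIRI and at 164, 158 and 99.8 CPM in GXNI. Esrrb, its relative, was at 34.5, 39.6 and 39.5 CPM in sham, at 14.9, 37.8 and 18.1 CPM in MIRI and at 25.9, 17.8 and 17.6 CPM in GXNI. Pprc1, a relative of Ppargc1a, was at 11.7, 15.4 and 17.95 CPM in sham, at 44.8, 18.7 and 47.9 CPM in MIRI and at 17.7, 30.4 and 58.3 CPM in GXNI, and was called higher in MIRI against sham (log2 fold change 1.32, SE 0.37, edgeR adjusted p = 0.0992). Tfam, which packs and transcribes mitochondrial DNA, was at 32.4, 37.3 and 33.5 CPM in sham, at 34.4, 43.0 and 35.3 CPM in MIRI and at 27.6, 32.6 and 33.3 CPM in GXNI.

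Sdhaf4, an assembly factor of complex II, was called lower in the 6 reperfused hearts (log2 fold change -0.94, SE 0.21, edgeR adjusted p = 0.0852). It was at 21.5, 27.8 and 25.3 CPM in sham, at 9.504, 18.8 and 10.9 CPM in MIRI and at 13.9, 14.2 and 10.6 CPM in GXNI, below every sham library in all 6 reperfused libraries. Ndufaf3, an assembly factor of complex I, was likewise called lower (-0.67, SE 0.18, edgeR adjusted p = 0.0875). Coq10a and Coq10b, which bind coenzyme Q, differed in direction. Coq10a was called lower (-0.62, SE 0.18, edgeR adjusted p = 0.0927), and Coq10b was 0.43 higher on the log2 scale (SE 0.11, edgeR adjusted p = 0.086), under the 1.5-fold minimum. Cyc1, cytochrome c1 of complex III, is not caught by the symbol rule and stood among the electron carriers and neighbours. Cyc1 and Cycs (cytochrome c) were at 714 to 762 and 652 to 767 CPM in sham. Their log2 fold changes in the 6 reperfused hearts were -0.13 (SE 0.17) and -0.13 (SE 0.16). Atpif1, the inhibitor of the ATP synthase, was at 78.7 to 82.1 CPM in sham, at 53.3, 75.4 and 69.4 CPM in MIRI and at 64.5 and 70.0 CPM in GXNI 2 and 3, while GXNI 1 lay above every sham library. Among the mitochondrial DNA-encoded subunits, mt-Nd3 was at 289, 322 and 249 CPM in sham, at 221, 211 and 192 CPM in MIRI and at 219, 193 and 183 CPM in GXNI, a log2 fold change of -0.50 (SE 0.11, edgeR adjusted p = 0.0852) in the 6 reperfused hearts. For mt-Nd4l it was -0.57 (SE 0.24).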

How the data were processed

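The deposited table holds whole-number counts per Ensembl gene for the 9 libraries. Per the labels and the study's methods, the authors trimmed adapters, dropped reads of low quality, mapped the rest to mm10 by HISAT2 and counted them with featureCounts of Subread, whose versions, annotation and strand setting are not given in the sources used here, so overlapping genes can share reads. Each group held 3 independent animals. Symbols, positions and union exon lengths came from GENCODE M21, which paired 54409 of 54532 identifiers. Analyses used R 4.3.3 with edgeR 4.0.16 (TMM, filterByExpr, quasi-likelihood test) on the counts as deposited, DESeq2 1.42.0 as an alternative, and Python 3.11.15 with SciPy 1.17.1 for exact permutation tests of log2 ratios with 0.5 added to each count. Only the libraries of a comparison entered its fit. The SE beside an edgeR log2 fold change is its absolute value divided by the square root of the quasi-likelihood F statistic. P-values were adjusted over all genes tested. Intervals of counting error cover that error only. No 2 libraries were alike within sampling noise.

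Groups followed the deposited labels. Exchanging the labels of MIRI 2 and GXNI 3 was tried because the study's own fold changes between groups could be rebuilt from the counts only with it. That check used a mean count minimum of 20. The members, lists and alternatives were chosen with earlier results of these data known. Members named are those of complex II and of 5 isoform pairs, the 2 of each complex highest per length, those with the smallest p or the most extreme fold change of their complex, the 3 with the smallest p in GXNI against MIRI, and those with at most 3 counts in every library. The fits were tested on simulated data. The alternatives tried were another normalization, no filter, DESeq2, mitochondrial genes left out, other call rules, libraries left out or exchanged, a joint fit and a replicate block.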

Additional observations from a re-analysis of the deposited data

Results flagged for a closer look

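Among 41 sets of values looked at for a library far from the rest, 2 had one among the 6 reperfused libraries by Dixon's test (critical value 0.625), and chance alone flags about 1 in 20. Cox6b2 was at 3.56 CPM in MIRI 2, above the other 5 reperfused libraries (1.03 to 1.97 CPM). The log2 ratio of Cox8b to Cox8a was 2.08 in GXNI 1, above the other 5 (1.95 to 1.99).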

How the results depend on the processing

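The number of members called lower in MIRI against sham was 0 by the deposited labels (2.82% of all genes). It was 11 without MIRI 2 and GXNI 3 (13.3%) and 9 with the exchange (16.6%). With 1 library at a time left out it was 0 to 11 (11 only without MIRI 2). Called higher in GXNI than in MIRI were 0 by the deposited labels, and 0 when any 1 library was left out. Without MIRI 2 and GXNI 3 the number was 1 (228 of all 14984 genes), and with the exchange 4 (8.56% of all genes). In GXNI against sham 0 to 1 were lower with 1 library left out (Cox7a2l without GXNI 1), and in all reperfused against sham 0 to 2 (Atp5s and Ndufa8 without MIRI 2), 1 without MIRI 2 and GXNI 3, and 1 with the replicate block (Atp5s). The shares of all genes called in these refits are not given here. The sample labels give replicate numbers without saying that they pair animals. Deviations of same-numbered libraries from their group means correlated from -0.46 to 0.73. These means rest on the deposited labels, so the correlations cannot decide whether animals were paired. The block changed no other number of members called. The number of members lower at an unadjusted p under 0.05 did move with it, from 9 to 2 in GXNI against sham and from 10 to 14 in all reperfused against sham. With 1 library left out these ran from 0 to 18 and from 0 to 46. Under another normalization, no filter, DESeq2, mitochondrial genes left out, adjusted p and a joint fit, the number of members called stayed 0 in each comparison.

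The Cox6a2 to Cox6a1 difference was -0.56 without MIRI 2 and GXNI 3, where no exact permutation p under 0.05 was possible, and it ran from -0.59 to -0.40 with 1 library left out. With a sham library left out no exact permutation p under 0.0714 was possible. The ranges with 1 library left out were -0.0625 to 0.0887 for Cox7a1 over Cox7a2, with the sign reversed without sham 3 (-0.0416) and GXNI 1 (-0.0625), -0.14 to -0.0236 for Cox8b over Cox8a, 0.22 to 0.39 for Cox4i2 over Cox4i1 and 0.24 to 0.51 for Ndufa4l2 over Ndufa4. Without GXNI 1 (Cox8b) or MIRI 2 (Cox4i2, Ndufa4l2) an exact permutation p of 0.0357 was reached.

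With 1 library left out, the log2 fold change in MIRI against sham ran from -0.0891 to 0.14 for Cox4i2 and from -0.13 to 0.38 for Ndufa4l2, both below 0 only without MIRI 3, from -0.34 to 0.0434 for Uqcrfs1, above 0 without MIRI 1 or MIRI 3, and from -0.305 to 0.14 for Atp5d, above 0 without sham 3, MIRI 1 or MIRI 3. In all reperfused against sham that of Atp5d ran from -0.15 to 0.0265, above 0 without sham 3, MIRI 1, MIRI 3 or GXNI 3. In GXNI against MIRI, Ndufa12 ran from -0.54 to 0.0705, reversed without GXNI 3, and was 0.26 without MIRI 2 and GXNI 3 and 0.67 with the exchange, which also took Cox6a1 to 0.0294. None of these reversed values was called. The cause was not tested. With 3 libraries a group, differences under the standard errors given could not be resolved at this depth and spread.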
